A study of Mus musculus with 8 samples.

Results

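The 10 genes described here, Klf2, Klf4, Klf5, Esrrb, Tbx3, Tfcp2l1, Nr0b1, Nr5a2, Prdm14 and Tcl1, are genes of the naive pluripotent state, the state of the early epiblast that mouse embryonic stem (ES) cells can keep in culture. They were chosen by name, and each matched 1 of the 23284 gene entries of the expression table that the authors deposited. The label of the group is transcription factors, and 9 of the 10 encode one. Tcl1 does not; its protein is a small coactivator of the kinase Akt. RNA was sequenced from 2 ES cell lines of mixed strain. The line named clone 6 carries a Ctcfl transgene that doxycycline induces, and the line named clone 7 carries none. Each line was grown for 48 h away from its fibroblast feeders, either with 2 µg/ml doxycycline or without it. The lines and the inducer make 4 groups, each with 2 libraries that come from 2 repeats of the whole experiment. Each line is a single clone, so the transgene and any other difference between the clones cannot be told apart, and the labels name neither the promoter nor the Ctcfl sequence of the transgene. Ctcfl, also called BORIS, is a germline zinc finger protein related to the insulator protein Ctcf.

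In mouse ES cells a core of general pluripotency factors, Pou5f1 and Sox2 among them, works together with a second layer of factors that mark the naive state. Lif signalling through Stat3 feeds into Klf4 and Tfcp2l1, relief from the repressor Tcf7l1 by Wnt signalling feeds into Esrrb, and Prdm14 limits signalling through the Fgf receptor and DNA methylation. When ES cells move towards the primed epiblast these genes are turned down while genes such as Fgf5 and Otx2 are turned up, and in serum cultures several of them vary from cell to cell. In RNA from whole cultures, fewer cells with a transcript and less transcript per cell cannot be told apart.

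Expression is given as FPKM, a fragment count divided by transcript length and by the number of mapped fragments, and for each gene the deposited table holds 1 FPKM value for each group, made from both of its libraries. No level below therefore carries an SD, and library depth is unknown. A gene is called here where the authors' deposited test, which has the layout of the program Cuffdiff, gives a q-value (a p-value adjusted over all 78127 tests of the 6 pairwise comparisons) under 0.05. Errors of log2 ratios are standard errors (SE) obtained by dividing the log2 ratio by the deposited test statistic. The deposited p-values are not the normal p of that statistic, so that a ratio can be called although its SE is large. The labels call the libraries biological replicates, but how the deposited test models the spread between them is not stated. For doxycycline in the non-transgenic line 0.108% of tested genes had a deposited p under 0.05, far fewer than a calibrated test gives with no change. The absence of a call therefore says little.

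Some facts of the whole series bear on these genes. In the transgenic line Ctcfl itself was at 0.403 FPKM without doxycycline and 0.995 FPKM under it, and with and without it at 0.498 and 0.513 FPKM in the other line (q = 0.296 and q = 0.9996 in the authors' deposited table). Of 8 ES cell markers, all were at 1 FPKM or more, with a summed level of 3989 to 4273 FPKM over the groups. None of 7 markers of the 2-cell-like state reached 1 FPKM, and of 8 endoderm markers 2 did. Feeder fibroblast markers, of which 11 of 12 reached 1 FPKM, summed to 254 FPKM without and 258 FPKM with doxycycline for clone 6, and to 198 and 193 FPKM for clone 7. Trophoblast markers, of which 5 of 7 reached 1 FPKM, summed to 21.9 and 27.9 FPKM for clone 6 and to 15.1 and 14.8 FPKM for clone 7, with none of the 6 tested between the lines called. The part of either set in any result below was not tested.

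Levels of the 10 genes differed widely, and most of them stepped through the groups in the same order. Klf5 was the most abundant, with a mean of 86.3 FPKM over the 4 groups, and Prdm14 the least, with a mean of 1.04 FPKM. For 9 of the 10 genes the highest of the 4 values was in the non-transgenic line with doxycycline. The exception was Tfcp2l1, which was highest in the transgenic line with doxycycline. The transgenic line without doxycycline held the lowest value of 8 genes, the exceptions being Tfcp2l1 and Prdm14, which were lowest in the non-transgenic line without doxycycline. The share of all genes with the same highest or lowest group was not counted. Of tested genes at 1 FPKM or more, 58.1% were higher with doxycycline in the non-transgenic line. With doxycycline in both lines, 53.9% were lower in the transgenic line.

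**Figure D1:**
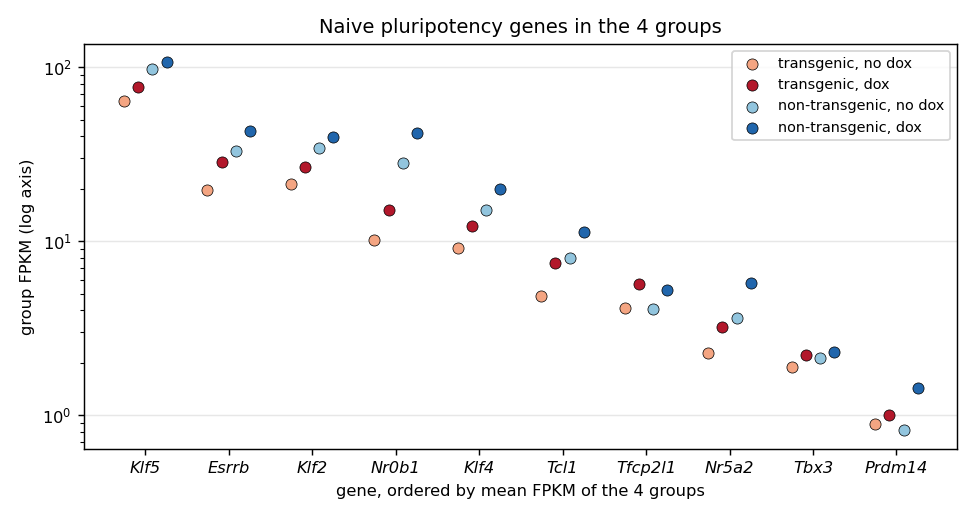
Group FPKM (log axis) of each of the 10 genes in the 4 groups, 1 deposited value per gene and group with no error bar; genes are ordered by their mean. Klf5 lies highest, at 63.5 to 107 FPKM, and Prdm14 lowest, at 0.818 to 1.42 FPKM. In 9 of the 10 genes the highest point is the non-transgenic line with doxycycline. The share of all genes with the same highest group was not counted.

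Among the orphan nuclear receptors, Nr0b1 (Dax1), a partner of Pou5f1 and Nr5a2 that lacks the usual DNA-binding domain, differed most between groups. In the transgenic line it stood at 10.1 FPKM untreated and 15.1 FPKM under doxycycline, and at 28.0 and 41.8 FPKM in the non-transgenic line. Both values of the non-transgenic line lay above both values of the transgenic line, and the highest was 4.14-fold the lowest. Esrrb, which binds DNA as a single receptor and holds much of the naive network together, was at 19.7 and 28.6 FPKM in the transgenic line without and with doxycycline. In the non-transgenic line it was at 32.8 and 43.1 FPKM. Nr5a2 (Lrh1), which can drive Pou5f1, was at 2.28 and 3.21 FPKM and at 3.61 and 5.74 FPKM in the same order. As for Nr0b1, the lines did not overlap for either receptor, but the transgenic line with doxycycline came within 0.20 (Esrrb) and 0.17 (Nr5a2) log2 units of the non-transgenic line without it. The share of all genes whose lines do not overlap was not counted, and with so few values per line the separation carries no weight.

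The Kruppel-like factors Klf2, Klf4 and Klf5 bind the same GC-rich sites through 3 C-terminal zinc fingers and can replace one another in part. Klf5 was at 63.5 FPKM without and 77.2 FPKM with doxycycline in the transgenic line, and at 97.9 and 107 FPKM in the non-transgenic line. Klf2, whose protein Erk signalling destabilises, stood at 21.3 and 26.6 FPKM and at 34.4 and 39.6 FPKM. Klf4, the reprogramming factor downstream of Stat3, stood at 9.17 and 12.2 FPKM and at 15.1 and 19.9 FPKM. All 3 had the same order of groups, and since FPKM is a value per length, the order Klf5 over Klf2 over Klf4 can be read within each group.

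The other factors were less abundant. Tfcp2l1, a Grainyhead-type factor downstream of Stat3, was at 4.13 FPKM without and 5.71 FPKM with doxycycline in the transgenic line and at 4.06 and 5.22 FPKM in the non-transgenic line. Its values paired by doxycycline and not by line. Tbx3, a T-box repressor linked to Akt signalling, ranged only from 1.89 to 2.32 FPKM over the 4 groups. Prdm14, a PR-domain protein of the naive epiblast and the early germline, was at 0.894 and 1.01 FPKM in the transgenic line and at 0.818 and 1.42 FPKM in the other. Tcl1 was at 4.85 and 7.51 FPKM and at 7.99 and 11.3 FPKM, in the same order as Esrrb. A level near 1 FPKM, as for Prdm14, rests on few reads, and its log2 ratios had SEs of 0.59 and 0.72 for the doxycycline contrasts.

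Whether the lines differ without the inducer was asked first. Nr0b1 was lower in the transgenic line, 2.78-fold (log2 -1.47, SE 0.27, q = 0.00812 in the authors' deposited table), and it was the 1 member called of 10 tested. By the same rule 1.37% of all 13047 tested genes were called, and 0.575% were called lower. Esrrb was 1.66-fold lower (log2 -0.73, SE 0.26) and missed the threshold at q = 0.0640, but passed it where the p was adjusted within this comparison alone (adjusted p = 0.0471 from the authors' deposited table). Klf4, Klf2 and Klf5 had log2 ratios of -0.72, -0.69 and -0.62, with q between 0.152 and 0.169 in the authors' deposited table. Nr5a2 and Tcl1 had ratios of -0.66 and -0.72 with larger errors (SE 0.64 and 0.40). Tbx3, Prdm14 and Tfcp2l1 had log2 ratios of -0.18, 0.13 and 0.02, each smaller than its SE, and that of Tfcp2l1 changed sign when FPKM was scaled to a common sum.

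Before adjustment, 6 members had a p under 0.05 in the deposited test, Klf2, Klf4, Klf5, Esrrb, Nr0b1 and Nr5a2, against 6.59% of all tested genes. On the scale of log2(FPKM + 1), used for medians because it damps the ratios of weakly expressed genes, the 10 members had a median difference of -0.62 and 8 were below 0. Over 12256 tested genes at 1 FPKM or more the median was -0.002, and 50.5% were below 0. Feeder marker levels moved with the line as given above, while 0 of 11 tested feeder markers were called in this comparison.

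With doxycycline in both lines the picture had much the same size. Nr0b1 was 2.77-fold lower in the transgenic line (log2 -1.47, SE 0.27, q = 0.00812 in the authors' deposited table), again the 1 member called of 10. The background was 1.52% of 13064 tested genes, 0.666% of them lower. Nr5a2 had a log2 ratio of -0.84 (SE 0.51, q = 0.251), Klf4 of -0.70 (SE 0.34, q = 0.296) and Esrrb of -0.59 (SE 0.30, q = 0.302). Klf2 stood at -0.57, Klf5 at -0.46 and Tcl1 at -0.59, none of them called. Before adjustment, those with a p under 0.05 were again Klf2, Klf4, Klf5, Esrrb, Nr0b1 and Nr5a2, 6 of 10, against 7.9% of all tested genes. The median over the 10 members was -0.54 with 9 below 0, Tfcp2l1 being the member above 0, while all tested genes at 1 FPKM or more had a median of -0.02 and 53.9% below 0.

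**Figure D2:**
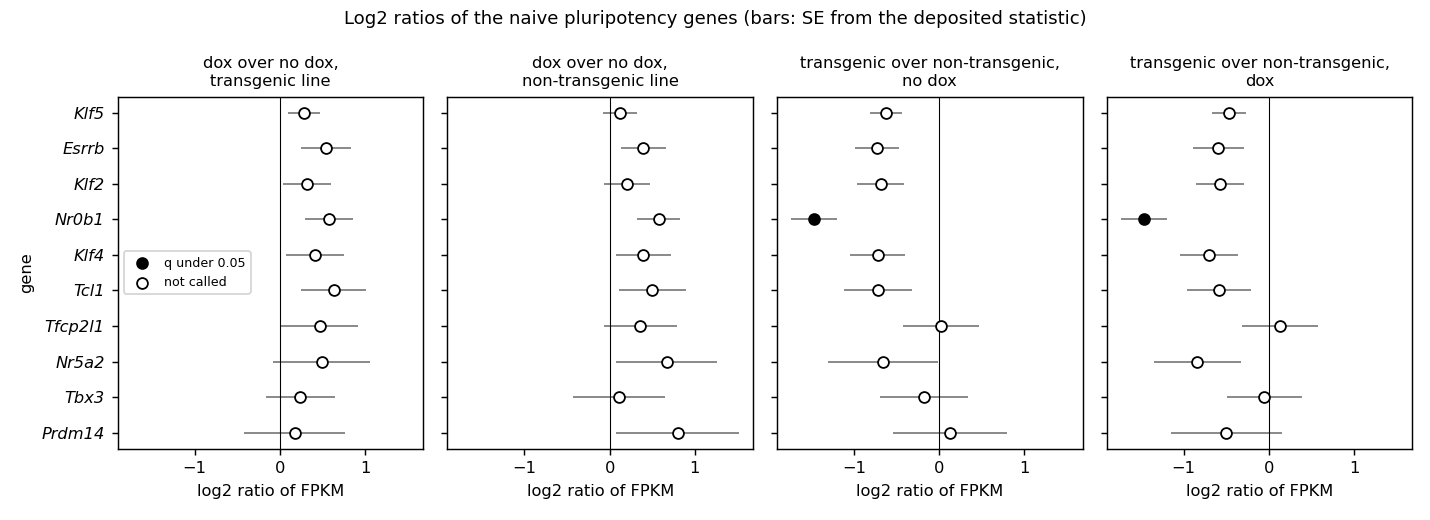
Log2 ratio of group FPKM (horizontal axis) for each gene in 4 comparisons, with bars of 1 SE taken from the deposited test statistic; filled points have a deposited q under 0.05. The filled points are Nr0b1 at -1.47 in both comparisons of the lines, and all 20 doxycycline ratios lie above 0 with none filled.

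Groups with and without doxycycline were compared next, first in the transgenic line. All 10 members had a higher FPKM with doxycycline, and none was called. The background by the same rule was 0.108% of 13003 tested genes, or 14 genes, and 0 genes where the p was adjusted within this comparison alone. The largest ratios were those of Tcl1 (log2 0.63, SE 0.38), Nr0b1 (0.58, SE 0.28) and Esrrb (0.54, SE 0.29), or 1.55-fold, 1.49-fold and 1.45-fold. Klf5 had the smallest SE, with a log2 ratio of 0.28 (SE 0.19) and a 1.22-fold higher level. Before adjustment, the authors' deposited table gave 2 members a p under 0.05, Esrrb (p = 0.0132, q = 0.471) and Tfcp2l1 (p = 0.0415, q = 0.882), against 1.08% of tested genes. The members' median was 0.37 on the log2(FPKM + 1) scale, beside 0.0006 for 12182 tested genes at 1 FPKM or more, of which 50.2% were above 0.

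Cells without the transgene gave the second doxycycline comparison, which shares no library with the first. Here too all 10 members had a higher value with doxycycline and none was called, as was true of all 12908 tested genes (0% called). Nr5a2 had a log2 ratio of 0.67 (SE 0.59, 1.59-fold), Nr0b1 of 0.58 (SE 0.25, 1.49-fold) and Tcl1 of 0.50 (SE 0.39). Prdm14 had the largest ratio, 0.80, and the largest error, SE 0.72. Nr5a2 (p = 0.0232, q = 0.648) and Nr0b1 (p = 0.0249, q = 0.674) were 2 of the 14 genes, 0.108% of those tested, with a p under 0.05 before adjustment in the authors' deposited table. Esrrb, Klf4, Klf2 and Klf5 had ratios of 0.40, 0.40, 0.20 and 0.12. The median of the 10 was 0.38, beside 0.02 for all tested genes at 1 FPKM or more, of which 58.1% were above 0.

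**Figure D3:**
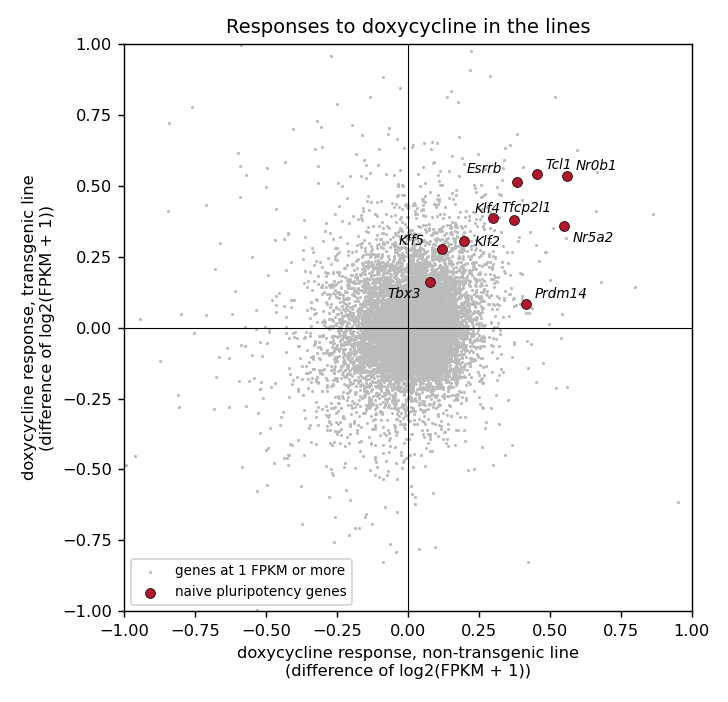
Response to doxycycline, as the difference of log2(FPKM + 1), in the non-transgenic line (horizontal axis) against the transgenic line (vertical axis), for 11879 tested genes at 1 FPKM or more (grey; 79 genes lie outside the axes in at least 1 line) and the 10 members (red). All 10 members lie in the upper right part, as do 31% of all genes.

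Between the lines, no difference in the response to doxycycline was detected for any of the 10 genes. Nr0b1 had log2 responses of 0.58 in each line, a difference of 0.004 with a 95% interval of -0.74 to 0.75. Klf4 differed by 0.02 (interval -0.90 to 0.94) and Klf2 by 0.12 (-0.65 to 0.88). The difference was 0.14 for Esrrb (-0.64 to 0.92), 0.16 for Klf5 (-0.37 to 0.69) and 0.13 for Tcl1 (-0.94 to 1.20). The widest interval was that of Prdm14, with a difference of -0.63 (-2.45 to 1.19). These come from a two-sided normal test on the deposited statistics, adjusted over 12638 genes, of which 0.142% were called and none of the 10 members. Among the members the smallest unadjusted p of this normal test was 0.499, for Prdm14. Over all genes 58 of 12638 had a p under 0.05 by this test, far fewer than a calibrated test gives with no change, so the level of the intervals is not exact and a missed difference says little. The intervals leave room for differences larger than the responses themselves, so equal responses are not shown. Of 11879 tested genes at 1 FPKM or more in both lines, 31% were higher with doxycycline in both, as were all 10 members.

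The extremes of the order were compared in the deposited table too, although both line and inducer differ between them. That order was read from these same member values, so more calls at its extremes and fewer in its middle partly follow. For all tested genes the pairs were not so chosen, so their share is no yardstick for these counts. Between the transgenic line without doxycycline and the non-transgenic line with it, 5 of the 10 members were called, all lower in the former, where 1.37% of tested genes were called. These were Nr0b1 (4.14-fold), Nr5a2 (2.52-fold), Esrrb (2.19-fold), Klf4 (2.17-fold), each at q = 0.00812, and Klf2 (1.86-fold, q = 0.0145). Klf5 and Tcl1 missed the threshold at q = 0.0740 and q = 0.110. The groups in the middle of the order, the transgenic line with doxycycline and the non-transgenic line without it, gave 0 calls among the members against 1.62% of tested genes, with Tfcp2l1 (p = 0.0280) and Nr0b1 (p = 0.0014, q = 0.107) below a p of 0.05 before adjustment in the authors' deposited table. Each of these pairs shares a group with each of the comparisons above. When each member's groups were put in order of level, no pair of neighbours was called for any of the 10. Such neighbours are the closest values by construction, so the lack of calls is largely set by the ordering.

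Profiles over the 4 group values were compared for the 3 members with the widest range, by the Euclidean distance between centred log2(FPKM + 1) values among 9048 other genes that reached 5 FPKM in any group. Among the genes closest to Nr0b1 were the junctional adhesion gene Jam2 (distance 0.39) and Gt(ROSA)26Sor, the noncoding transcript of the Rosa26 locus (0.46). Gt(ROSA)26Sor was at 4.97 and 5.65 FPKM in the transgenic line without and with doxycycline and at 11.8 and 13.8 FPKM in the non-transgenic line. Closest to Esrrb were Mreg (0.14), the autophagy receptor gene Optn (0.15) and Snora28 (0.17), and closest to Tcl1 were Snora28 (0.16), Optn (0.16) and Ppm1j (0.17). Snora28 is a very short gene, for which FPKM is uncertain. With 4 values a profile is a coarse description.

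The members lie on 7 chromosomes. Positions are from the deposited table on build mm10, and GENCODE M21 lists all 10 as protein coding. Nr0b1 is at chrX:86191775-86195944 on the plus strand. Esrrb (86361117 to 86521628, plus strand) and Tcl1 (105216755 to 105222737, minus strand) are on chromosome 12. Tfcp2l1, Nr5a2 and Prdm14 are on chromosome 1, and Klf2, Klf4, Klf5 and Tbx3 on chromosomes 8, 4, 14 and 5. Within 500 kb on either side of the members no other tested gene at 1 FPKM or more was called in any of the 4 comparisons. Each member had only 1 to 18 such neighbours. Of all tested genes 0% to 1.52% were called in these comparisons, so the lack of calls says little. For doxycycline in the non-transgenic line the median of the neighbours was above 0 for every member. Only for Esrrb and Nr5a2 did the neighbours' median have the member's sign in all 4 comparisons. For every other member the sign differed at least once. Examples are Klf2 between the lines without and with doxycycline (0.010 and 0.009) and Tcl1 for doxycycline in the transgenic line (-0.07). The 8 neighbours of Esrrb had medians with the same signs as Esrrb itself. They were 0.03 and 0.06 for doxycycline in the transgenic and the other line and -0.09 and -0.12 between the lines without and with it. The 6 neighbours of Nr5a2 also had medians with the same signs as Nr5a2, 0.09 and 0.09 for doxycycline and -0.15 and -0.14 between the lines, in the same order. Among them Gm19705 stood at 4.70 and 5.22 FPKM in the transgenic line without and with doxycycline and at 5.98 and 7.39 FPKM in the other, the order of Nr5a2. The 1 such neighbour of Nr0b1, the glycerol kinase gene Gyk, was at 3.01 and 3.38 FPKM in the transgenic line and 2.73 and 3.46 FPKM in the other, without and with doxycycline. Over 428 X-linked genes the median difference between the lines without doxycycline was 0.07, and 3 of the 11 called were lower in the transgenic line. Of all 13047 tested genes 179 were called in that comparison, 75 of them lower. On chromosomes 1 and 12, 3 of 9 and 6 of 9 called genes were lower.

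Promoters of members are shown because Nr0b1 is the called gene and because Klf4 and Tcl1 hold the core letters of the Ctcf motif, which the zinc fingers of Ctcfl are also known to recognise. RefSeq promoter sequences (build GRCm38.p6) were found for 7 of the 10 symbols (Klf5, Tbx3 and Prdm14 being the others), in 9 entries. Shown are the 250 bases before the transcription start, 5′ to 3′ on the gene's own strand, with matches to any of 6 searched motifs in capitals. The windows are chrX:86191525-86191774 (plus strand) for Nr0b1, chr4:55532476-55532725 (minus strand) for Klf4, chr12:105222738-105222987 (minus strand) for Tcl1 and chr1:118627695-118627944 (plus strand) for Tfcp2l1.
Nr0b1: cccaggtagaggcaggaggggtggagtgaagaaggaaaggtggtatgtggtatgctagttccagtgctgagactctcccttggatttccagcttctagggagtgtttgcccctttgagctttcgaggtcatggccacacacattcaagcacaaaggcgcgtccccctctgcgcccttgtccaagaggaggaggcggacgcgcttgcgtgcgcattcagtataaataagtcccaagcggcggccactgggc
Klf4: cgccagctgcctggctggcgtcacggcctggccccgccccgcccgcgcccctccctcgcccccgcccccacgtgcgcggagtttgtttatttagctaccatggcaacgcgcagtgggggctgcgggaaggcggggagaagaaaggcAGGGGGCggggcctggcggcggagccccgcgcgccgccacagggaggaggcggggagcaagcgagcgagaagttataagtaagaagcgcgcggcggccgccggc
Tcl1: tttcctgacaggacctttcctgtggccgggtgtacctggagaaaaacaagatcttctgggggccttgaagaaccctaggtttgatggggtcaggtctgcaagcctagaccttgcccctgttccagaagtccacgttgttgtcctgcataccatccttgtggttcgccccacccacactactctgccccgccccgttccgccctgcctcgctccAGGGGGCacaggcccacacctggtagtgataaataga
Tfcp2l1: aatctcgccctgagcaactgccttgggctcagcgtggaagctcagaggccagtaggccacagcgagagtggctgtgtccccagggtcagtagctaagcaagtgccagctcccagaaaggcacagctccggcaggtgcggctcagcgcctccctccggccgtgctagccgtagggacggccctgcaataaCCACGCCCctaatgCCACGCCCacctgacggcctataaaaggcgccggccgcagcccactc

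The search covered both strands of the whole 300-base entries, which run to 50 bases past the start. The Ctcf core AGGGGGC was in the Klf4 and Tcl1 promoters, 104 and 37 bases before the start, and in 10.6% of all 32851 promoter entries. The Klf motif GGGNGTGG was in the Tfcp2l1 promoter, as 2 copies on the opposite strand, and in 1 of the 2 Nr5a2 entries, against 17.6% of all entries. No member entry held the Stat motif TTCCNGGAA (1.15% of all entries), the Esrrb motif TCAAGGTCA (0.423%), the Nr5a motif TCAAGGCCA (0.591%) or the Tcf motif CTTTGAT (3.73%). None of the motifs overlapped another in these windows. The Nr0b1 window therefore has no capitals. The Klf4 and Klf2 windows were rich in G and C, at 74% and 71.2%, and the Nr0b1 and Tcl1 windows lay at 57.2% and 57.6%, beside a median of 52.4% for all entries.

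Genes around the members were described from 10 lists with 134 genes in all, some of them shared between lists. The lists were chosen with earlier results of these data known, so their counts of called genes are a description only. Of all tested genes, 1.37% and 1.52% were called between the lines without and with doxycycline. For doxycycline the shares were 0.108% in the transgenic line and 0% in the other. Among the core pluripotency factors Nanog was higher in the transgenic line without doxycycline (97.6 against 57.9 FPKM, q = 0.034) and Sox2 lower (105 against 168 FPKM, q = 0.025), while 6 of 8 were not called and Pou5f1 was at 1116 and 1080 FPKM. Of 16 other markers of the naive state 2 were higher (Zfp42, or Rex1, and Nanog) and 3 lower (Gbx2, Jam2 and Fgf4) in the same comparison. Zfp42 was at 58.8 against 18.9 FPKM and Gbx2 at 6.04 against 25.0 FPKM, so named naive genes differed between the lines in both directions. That list had a median of -0.33, with 11 of 16 below 0, beside -0.62 for the 10 members. With doxycycline, the same markers had a median of 0.27 in the transgenic line and of 0.23 in the other, with 12 and 15 of 16 above 0 and 0 called in either.

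The inputs to the members gave a mixed picture in the authors' deposited table. Lifr, the Lif receptor, was lower in the transgenic line without doxycycline (3.03 against 6.13 FPKM, q = 0.00812), 1 of 12 Lif and Stat3 genes called there. Jak2, a kinase that acts below such receptors, was the 1 gene of that list called for doxycycline in the transgenic line, from 2.53 to 5.30 FPKM (q = 0.00812). In the non-transgenic line Jak2 was at 1.87 and 2.18 FPKM, and its difference between the responses had a p of 0.219 by the normal test. In the Wnt list Sp5, Wnt3 and Axin2 were higher in the transgenic line without doxycycline, 3 of 12 tested, with Axin2 at 9.70 against 3.07 FPKM, while the repressor Tcf7l1 was at 90.1 and 86.0 FPKM. Of 14 Fgf and Erk genes Fgf8 was higher and Fgf4 and Spry4 lower, and of 13 partners and readouts of Prdm14 1 was lower, Dnmt3l (120 against 206 FPKM). With doxycycline 3 of those 13 were lower in the transgenic line, Dnmt3l (130 against 230 FPKM, q = 0.0145) and the DNA demethylation genes Tet1 (14.7 against 25.1 FPKM, q = 0.00812) and Tet2 (2.36 against 4.31 FPKM, q = 0.0462), and the list had a median of -0.44 with 10 of 13 below 0. None of 10 genes of the Akt pathway, on which Tcl1 acts, was called in any of the 4 comparisons, and Akt1 stayed between 41.0 and 44.8 FPKM.

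The list of formative and primed epiblast genes is a mixed one, in which Tfap2c is also among the trophoblast markers above. Of its genes 5 of 21 were higher (T, Eomes, Krt18, Fst and Nodal) and 1 lower (Foxd3) in the transgenic line without doxycycline. Their median was 0.09, with 11 of 21 above 0. With doxycycline 7 were higher and 2 lower. Lefty1, a Nodal antagonist, was among the higher ones (324 against 185 FPKM, q = 0.00812). The lower ones were Foxd3 again and Pou3f1 (54.0 against 95.7 FPKM, q = 0.00812). For doxycycline in the transgenic line the median was -0.10 with 13 of 21 below 0, and Krt18, a keratin gene, was the 1 called (96.3 to 167 FPKM, q = 0.00812). Neither Krt18 nor Jak2 was called where the deposited p was adjusted within that comparison alone (adjusted p = 0.0929 for both, from the authors' deposited table). The primed marker Fgf5 was at 22.6 and 15.3 FPKM without and with doxycycline (q = 0.382) in that line and at 12.9 and 12.5 FPKM in the other.

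Paralogs of the members were looked at next. None of the tested Klf paralogs (11 or 12 of 14) was called in any of the 4 comparisons, with medians of -0.19 and -0.23 between the lines without and with doxycycline. Klf6 and Klf9, the most abundant of them, were at 28.8 to 37.3 FPKM and 26.4 to 37.2 FPKM, below Klf5 and above Klf4 in every group. Of 23 paralogs of the other members 10 were tested and none was called. At most 1.52% of all tested genes were called in any of the 4 comparisons, so 0 calls in such small lists says little. Tcl1b3, Tcl1b4 and Tcl1b5, relatives of Tcl1 in the same gene cluster, were listed at 0 in all 4 groups, and the Nr5a2 paralog Nr5a1 and the Esrrb paralog Esrrg stayed under 0.1 FPKM.

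**Figure D4:**
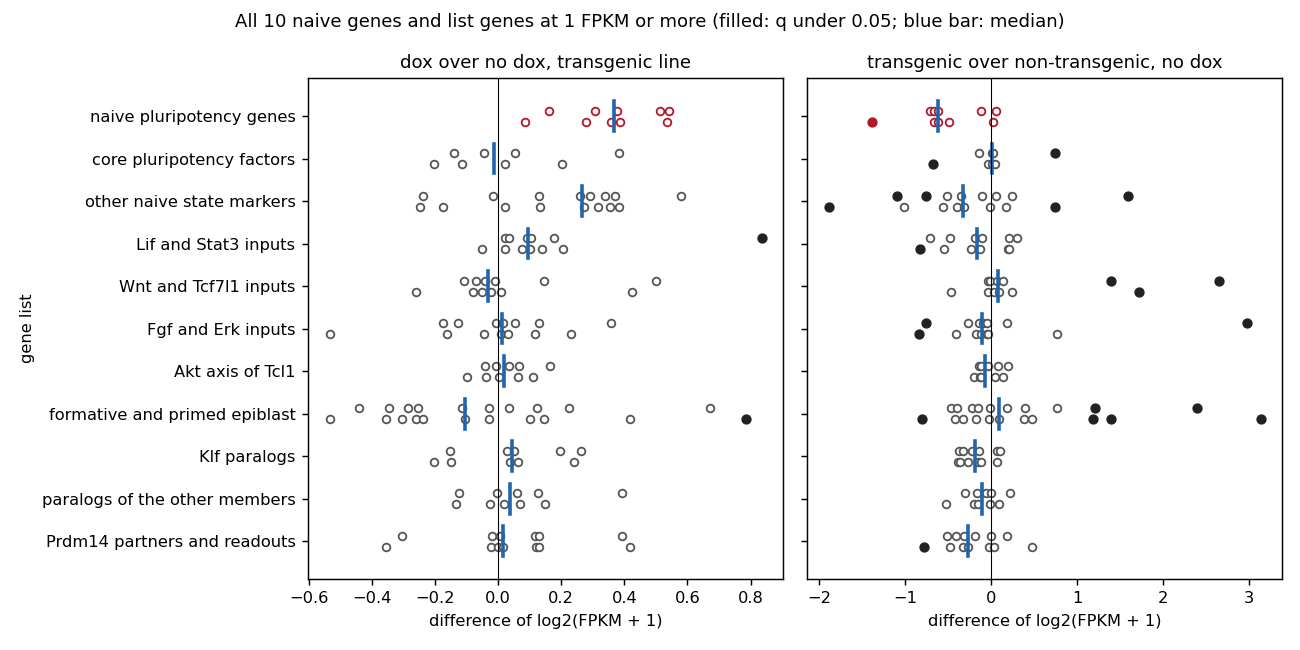
Difference of log2(FPKM + 1) for the 10 members (red) and for the tested genes at 1 FPKM or more of 10 related lists (black), for doxycycline in the transgenic line (left) and for the transgenic over the non-transgenic line without doxycycline (right); filled points have a deposited q under 0.05 and blue bars are medians. The members' medians lie at 0.37 and -0.62, beside 0.27 and -0.33 for the other naive state markers.

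The other most abundant genes of the lists, Dppa5a, Utf1, Pim1, Pim3, Ctnnb1, Etv5, Mapk3, Eras, Dnmt3b, Ubp1 and Prdm4, were called in none of the 4 comparisons. Over all 10 lists together, 19 of 117 tested genes were called between the lines without doxycycline (8 lower in the transgenic line) and 25 of 116 with it (11 lower). The shares of all tested genes were 1.37% and 1.52%, and the lists were not chosen blind to these data. For doxycycline the counts were 2 of 116 in the transgenic line and 0 of 117 in the other by the authors' deposited test.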

How the data were processed

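Single-end 75 bp reads of 8 libraries were processed by the authors. Per the submitters' processing notes the tools were TopHat2 2.0.8 and Cufflinks 2.1.1 and the build mm10, with no roles stated; no label names the annotation, strand setting or normalization. The authors deposited FPKM per gene and group, a test statistic (a score with no fixed range), p-values and q-values, in 6 pairwise comparisons. The deposited q-value differed from a Benjamini-Hochberg adjustment over all 78127 tests by at most 5.21e-07, and the smallest p-value is 5e-05. Log2 ratios were computed from the deposited FPKM values with no pseudocount, because the deposited fold change column holds damaged cells, and medians from log2(FPKM + 1). Table starts were raised by 1 to count from 1. The difference between responses was tested with a two-sided normal test over all genes with an SE in both lines and tested on simulated data (Python 3.11.15, SciPy 1.17.1). No library values were used, so no library could be left out.

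Samples were grouped by their titles. The members and gene lists were chosen with earlier results of these data known. Named are all 10 members and, from each related list, up to 5 called genes and the 2 most abundant, the called ones by largest change, a few others being named after their values were seen. Neighbours within 500 kb, X-linked genes and base composition were added after the data were seen. Alternatives were other adjustments, thresholds, pseudocounts, scalings, expression minimums and standard errors. One gene that the rule on like profiles names is not reported here.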

Additional observations from a re-analysis of the deposited data

How the results depend on the processing

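The medians of the 10 members kept their sign in all 4 comparisons with a pseudocount of 0.1, with none, with a median ratio scaling and with a scaling to a common sum. They ran from 0.37 to 0.44 and from 0.36 to 0.40 for doxycycline in the transgenic and non-transgenic line, and from -0.68 to -0.61 and from -0.58 to -0.52 between the lines without and with it. No scaling moved the median of all genes by over 0.1. Adjusting the deposited p within each comparison gave 2 called members in place of 1 between the lines without doxycycline. A q threshold of 0.1 did the same. Over all tested genes the calls in that comparison rose too, from 179 to 197 and to 224. Esrrb was the second member, at an adjusted p of 0.0471. With the p adjusted within the comparison, the related lists had 0 calls in place of 2 for doxycycline in the transgenic line. All tested genes had 0 in place of 14. Jak2 and Krt18 were at an adjusted p of 0.0929. The log2 ratio of Tfcp2l1 between the lines without doxycycline was -0.014 with FPKM scaled to a common sum in place of 0.025. The cause of these changes was not tested beyond the adjustment itself. The difference between responses had 0 called members under every setting run, and over all genes 18 calls, or 0 with SEs from the deposited p. No paired analysis was possible because the table holds 1 value per group; for the same reason no replicate could be left out.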
